A study of Mus musculus with 10 samples.

Results

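A set of 9 genes of the red cell programme were followed in sorted mouse LSK cells: the globins Hbb-bs and Hba-a1, the haem enzyme Alas2, the carbonic anhydrases Car1 and Car2, the transcription factors Klf1 and Gata1, the erythropoietin receptor Epor and the transferrin receptor Tfrc. LSK cells are bone marrow cells without lineage markers that carry Sca1 and cKit, the compartment of blood stem cells and multipotent progenitors. The 9 genes had 17 probes on the array, out of 45281 probes for 19057 named genes. They were taken as every probe whose single gene symbol, current or older, was 1 of these names (Hbb-b1 for Hbb-bs), and they were chosen with the levels of these same arrays known. Each array held RNA of 1 mouse, from 5 LysM-KI mice and 5 control mice. All 10 mice carried the strain label LysMCre, a line in which Cre recombinase is expressed from the lysozyme 2 gene in myeloid cells, and all were 9 to 16 weeks old. The labels do not name the allele that was knocked in. Neither sex nor the antibodies behind the lineage gate are stated.

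Red cells are made from stem cells through progenitors that switch on a shared set of genes. Erythropoietin binds its receptor EPOR on these progenitors, the factors GATA1 and KLF1 turn on the genes of the programme, the transferrin receptor TFRC brings in iron, and ALAS2 starts the erythroid route of haem synthesis. The globin chains then bind haem to form haemoglobin, and carbonic anhydrases interconvert carbon dioxide and bicarbonate. Globin transcripts become the most abundant messages of maturing red cells, whereas stem and multipotent cells are defined by the absence of such lineage products.

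The promoters of 3 members are shown because the results below turn on these genes, whose 3 highest arrays were the same. The windows run from 250 bases before the start site to 50 after it and come from RefSeq on GRCm38.p6. Capitals mark 3 kinds of match, searched on both strands: a GATA word, a CACCC word and a CCAAT word. GATA words, the core of sites bound by GATA1, were spelled AGATAA in one form and, in the other form that was searched, TGATAA. The words named CACCC, the core of sites bound by KLF1, were spelled CCNCNCCC, where N is any base. The last word was spelled as its name.
Hbb-bs, chr7:103827879-103828178, minus strand: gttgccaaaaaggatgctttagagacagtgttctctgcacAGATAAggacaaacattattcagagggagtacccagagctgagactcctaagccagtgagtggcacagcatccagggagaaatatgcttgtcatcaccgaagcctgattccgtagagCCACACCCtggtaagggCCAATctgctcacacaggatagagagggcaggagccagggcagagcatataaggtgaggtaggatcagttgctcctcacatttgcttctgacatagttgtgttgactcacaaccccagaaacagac
Hba-a1, chr11:32283422-32283721, plus strand: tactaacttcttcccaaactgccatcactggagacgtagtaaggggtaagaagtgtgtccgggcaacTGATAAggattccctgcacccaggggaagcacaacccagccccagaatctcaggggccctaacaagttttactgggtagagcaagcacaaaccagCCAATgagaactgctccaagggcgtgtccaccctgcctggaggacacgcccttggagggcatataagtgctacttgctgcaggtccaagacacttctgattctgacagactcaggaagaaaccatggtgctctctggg
Klf1, chr8:84901732-84902031, plus strand: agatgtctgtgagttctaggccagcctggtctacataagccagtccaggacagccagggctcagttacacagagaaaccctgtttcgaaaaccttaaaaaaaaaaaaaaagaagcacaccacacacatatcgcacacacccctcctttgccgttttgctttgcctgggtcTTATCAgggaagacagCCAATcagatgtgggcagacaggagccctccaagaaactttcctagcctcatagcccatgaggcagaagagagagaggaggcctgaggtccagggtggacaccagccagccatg

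The Hbb-bs window held 1 of each, a GATA word beginning 210 bases before the start site, a CACCC word 93 bases before it and CCAAT 76 bases before it. The Hba-a1 window held a GATA word 183 bases and CCAAT 88 bases before the start. In the Klf1 window the GATA word lay on the opposite strand 80 bases before the start, with CCAAT 64 bases before it. No CACCC word of these letters occurred in the Hba-a1 or Klf1 window. Among the members whose promoters are not printed, Alas2 had 1 GATA word and 4 CACCC words, Epor 1 and 4, and Gata1 0 and 3, with neighbouring CACCC words overlapping in Alas2 and Epor. The windows of the 2 Tfrc start sites held 5 and 3 CACCC words and no GATA word. Neighbouring CACCC words overlapped there too. The 2 windows share bases, and the words 38 and 40 bases after the first start site are those 188 and 186 bases before the second. Such words are common. Of 32851 promoter windows of the same length, 18.6% held a GATA word, 49.5% a CACCC word and 37.4% CCAAT, and 2.12% held all 3, as the Hbb-bs window did. A match is a description of the letters and not a bound site. The windows of Hba-a1 and its copy Hba-a2 shared a run of 297 identical bases, whereas the longest run shared by Hbb-bs and its neighbour Hbb-bt was 14 bases. Of the 9 members, 7 had a window.

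Levels are log2 intensities after background correction and quantile normalization, so that higher is brighter on a scale of doublings. A probe counted as measured when it was detected on at least 5 of the 10 arrays, which 17245 probes were. Of the 17, 12 member probes for 5 genes passed, namely those of Hbb-bs, Car1, Car2, Klf1 and Tfrc. The other 5 probes, for Hba-a1, Alas2, Gata1 and Epor, did not, and their levels on most arrays are background. The arrays detected 15234 to 18801 probes each and correlated at 0.741 to 0.931 with one another. Control replicate 4 had the fewest detected probes and stood apart on the first principal component, and LysM-KI replicate 2 stood apart on the second. Of the 11 genes listed for the LSK gate and stem cells, 8 were measured. Kit, the receptor used in the sort, read 8.77 to 9.76 in LysM-KI mice and 8.09 to 9.27 in control mice, with control replicate 2 lowest. Ly6a, which encodes Sca1, was not analysed here.

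Hbb-bs, an adult beta-globin chain, was detected on all 10 arrays. Its brightest probe, ILMN_1244316, read 11.25, 8.77, 8.71, 8.70 and 9.13 in LysM-KI mice 1 to 5, against 8.90, 12.43, 9.01, 10.82 and 9.51 in control mice 1 to 5. There were 3 high arrays, LysM-KI replicate 1 and control replicates 2 and 4, and the groups overlapped. The other 7 arrays lay between 8.70 and 9.51, and the lowest of the 3 high arrays was 1.30 above the highest of them. Over all 10 arrays the intensity spanned 13.2-fold. Hbb-bs averaged 9.31 ± 1.10 in LysM-KI mice and 10.13 ± 1.49 in control mice (SD, n = 5 each).

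All 6 Hbb-bs probes were measured, and in 6 of 6 the 3 highest arrays were LysM-KI replicate 1, control replicate 2 and control replicate 4. Among all measured probes, 0.841% had these 3 arrays on top, and among measured genes 0.888%, or 79 of 8896. Since the probes share a target and the pattern was picked after it was seen, their count describes 1 transcript. The widest span belonged to probe ILMN_2544056, which read 10.11, 5.31, 5.08, 6.97 and 5.66 in LysM-KI mice 1 to 5, against 6.09, 11.23, 5.92, 9.45 and 5.46 in control mice 1 to 5, or 71.1-fold from lowest to highest, with the lowest array, LysM-KI replicate 3, not detected. The rise was smaller than with the brightest probe for ILMN_1229203, ILMN_2545963 and ILMN_1255462. LysM-KI replicate 1 lay 1.95-, 1.83- and 2.31-fold above the median of the 7 other arrays, against 5.09-fold with the brightest. Control replicate 4 lay 1.89-, 1.88- and 2.32-fold above it, against 3.77-fold. Control replicate 1 was lowest with these probes, at 5.80, 5.65 and 5.27, where the medians of the 7 were 7.01, 6.99 and 6.34. Pairs of the 6 probes correlated at 0.789 to 0.993 over 10 arrays. In the 7 other arrays the same pairs ran from -0.375 to 0.958, so the probes did not all order those mice alike. Transcripts of Hbb-bs and the near copies Hbb-bt and Hbb-b2 could not be told apart by these probes with the annotation used here.

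Hba-a1, an adult alpha-globin chain, was detected on LysM-KI replicate 1 and control replicates 2 and 4 only. Its probe read 7.58, 4.57, 4.62, 4.83 and 4.52 in LysM-KI mice 1 to 5, against 4.54, 9.81, 4.65, 8.78 and 4.52 in control mice 1 to 5. These are the 3 arrays on which Hbb-bs was high, with control replicate 4 above LysM-KI replicate 1 here and below it for Hbb-bs. On the scanner's linear scale, before background correction, the Hba-a1 probe gave 294, 121, 119, 120 and 97 units in LysM-KI mice, against 120, 698, 124, 485 and 107 units in control mice. The 7 arrays without detection were thus between 97 and 124 units. The copy Hba-a2 has no value of its own here.

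Alas2, which makes the first haem precursor in red cells, was detected on 2 arrays. It read 5.30, 4.84, 4.69, 4.58 and 4.41 in LysM-KI mice 1 to 5, against 4.65, 6.39, 4.88, 4.64 and 4.58 in control mice 1 to 5. LysM-KI replicate 1 and control replicate 2 were the detected arrays, and control replicate 4, with its high globins, was not detected with this probe.

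Car1, a carbonic anhydrase abundant in red cells, was detected on all arrays. It read 7.82, 7.57, 6.15, 7.09 and 6.02 in LysM-KI mice 1 to 5, against 6.86, 9.29, 5.92, 7.03 and 8.67 in control mice 1 to 5. Control replicate 2 was again highest, but control replicate 5 came next, and control replicate 4 lay in the middle of the 10. The span was 10.3-fold.

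Car2, the carbonic anhydrase of erythroid progenitors and many other cells, had 2 measured probes that disagreed. ILMN_2603504 read 11.13, 10.16, 9.70, 9.99 and 9.86 in LysM-KI mice 1 to 5, against 10.34, 11.36, 9.60, 8.99 and 9.68 in control mice 1 to 5. ILMN_2606746 read 9.53, 10.13, 9.56, 8.71 and 9.48 in LysM-KI mice 1 to 5, against 8.96, 10.36, 9.18, 10.41 and 10.29 in control mice 1 to 5. Control replicate 4 was lowest with the first probe and highest with the second, and the correlation between them was -0.02 over 10 arrays. No order of the mice can therefore be given for Car2 as a gene.

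**Figure D1:**
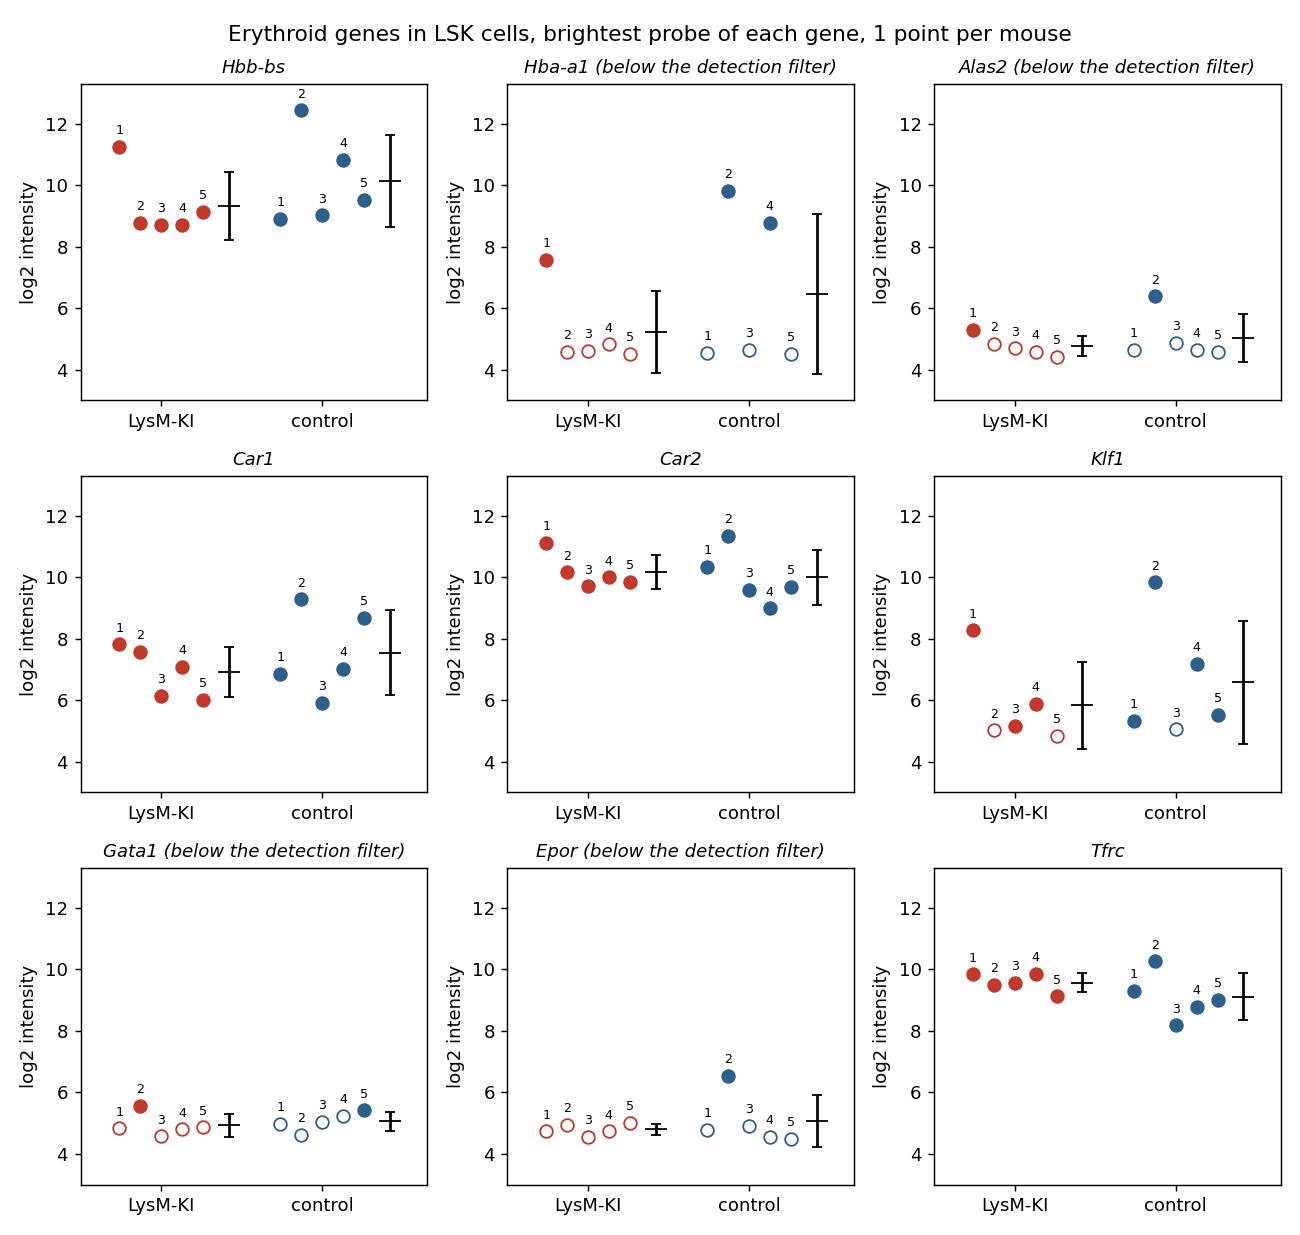
Log2 intensity (vertical axis) of the brightest probe of each of the 9 genes, with 1 point per mouse for LysM-KI (left) and control mice (right), replicate numbers above the points, and bars for mean and SD (n = 5 each). Open points mark arrays without detection. LysM-KI 1, control 2 and control 4 are the 3 highest points for Hbb-bs, Hba-a1 and Klf1, but not for Car1, Car2, Gata1 or Tfrc.

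Among the regulators, Klf1, the factor that activates the adult beta-globin gene, followed the globins. It was detected on 7 arrays and read 8.27, 5.02, 5.17, 5.89 and 4.84 in LysM-KI mice 1 to 5, against 5.32, 9.84, 5.06, 7.18 and 5.53 in control mice 1 to 5. The same 3 arrays were highest, with a gap of 1.28 to the next, LysM-KI replicate 4. The other 7 lay between 4.84 and 5.89. The span of 32.0-fold is set at its low end by arrays near background.

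Gata1, the master regulator of red cell and megakaryocyte development, stayed near background. Probe ILMN_1237279 read 4.83, 5.56, 4.58, 4.80 and 4.86 in LysM-KI mice 1 to 5, against 4.98, 4.62, 5.05, 5.24 and 5.42 in control mice 1 to 5, with detection on 1 array of each group. Probe ILMN_2935686 was detected on 1 control array and read 5.02, 4.96, 4.80, 4.74 and 4.69 in LysM-KI mice 1 to 5, against 4.58, 5.24, 4.72, 5.28 and 4.67 in control mice 1 to 5. The probes disagreed: the globin-high arrays were the 3 highest with ILMN_2935686, all near background, whereas with ILMN_1237279 control replicate 2 read 4.62, among the lowest.

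Epor, the receptor for erythropoietin, was detected on control replicate 2 only. It read 4.74, 4.94, 4.56, 4.73 and 5.02 in LysM-KI mice 1 to 5, against 4.79, 6.54, 4.92, 4.56 and 4.49 in control mice 1 to 5. For Gata1 and Epor, both group means lay near the background level, so no fold is given.

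Tfrc, which imports transferrin-bound iron and is used by dividing cells of many kinds, was the only early member detected on every array with both of its probes. ILMN_2619848 read 9.84, 9.49, 9.56, 9.86 and 9.12 in LysM-KI mice 1 to 5, against 9.31, 10.26, 8.18, 8.79 and 9.02 in control mice 1 to 5. All 5 LysM-KI mice lay above the control mean of 9.11, while the highest single array was control replicate 2. ILMN_2860804 read 8.89, 7.83, 8.37, 8.18 and 8.24 in LysM-KI mice 1 to 5, against 8.09, 9.30, 6.97, 8.25 and 7.99 in control mice 1 to 5. The 2 probes ordered the mice similarly (r = 0.84 over 10 arrays, 0.83 in the 7 arrays without high globins), with control replicate 3 lowest in both.

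Across the 17 probes, 14 were highest in control replicate 2, of which 6 were Hbb-bs probes that share a target. The share of all measured probes that were highest on that array was not computed. With members chosen from levels on these arrays, the count is only a description. In bulk RNA of this kind, a change in the number of red cell precursors and a change in transcript per cell cannot be told apart.

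**Figure D2:**
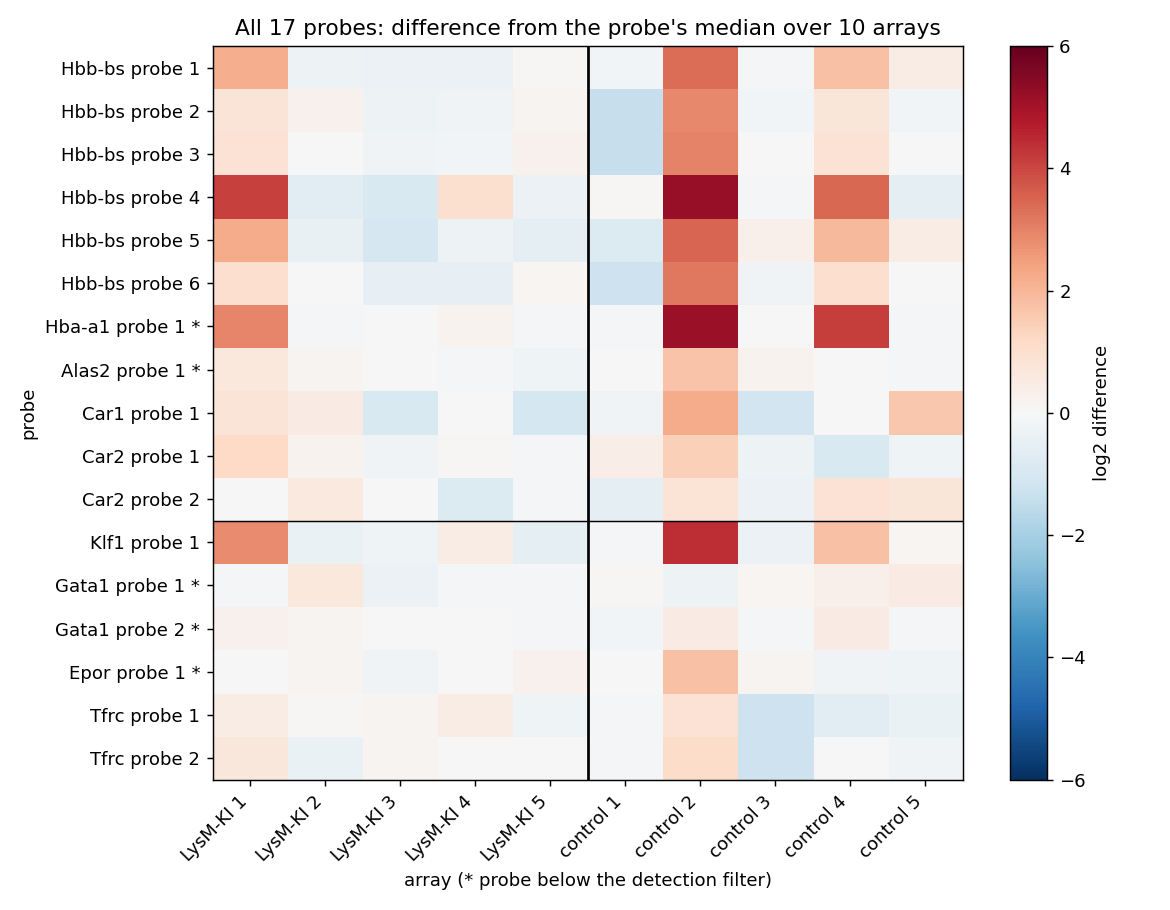
Difference of each array (columns) from the median of the probe over 10 arrays, in log2 units by colour, for all 17 probes (rows), with LysM-KI mice left of the vertical line and control mice right of it. The horizontal line divides mature red cell members from early erythroid members, and asterisks mark probes below the detection filter. The 6 Hbb-bs rows, Hba-a1 and Klf1 are red in LysM-KI 1, control 2 and control 4.

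The comparison of LysM-KI with control LSK cells asks how the mutant genotype alters gene expression. For Hbb-bs, Car1 and Klf1 the mean was lower in LysM-KI mice, by less than the spread between mice, and for Tfrc it was higher. The log2 difference, LysM-KI minus control, was -0.82 ± 0.73 for the brightest Hbb-bs probe (SE of limma's linear model), and the 6 probes ran from -1.09 to -0.25. It was -0.62 ± 0.64 for Car1 and -0.74 ± 0.95 for Klf1. For Tfrc it was 0.46 ± 0.36 and 0.18 ± 0.39 with its 2 probes. The Car2 probes gave 0.17 ± 0.44 and -0.36 ± 0.38, opposite in sign. In the fit without the detection filter, Hba-a1 gave -1.24 ± 1.22 and Alas2 -0.26 ± 0.35, but 7 and 8 of the 10 arrays were not above background for them, so these values depend on the background level and give no direction. The members were chosen from levels on these arrays, so these differences are a description.

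Of the 12 measured member probes, 9 had a difference below 0, against 46.6% of all 17245 measured probes. The 6 Hbb-bs probes are 6 of these 9 and count as 1 gene. With limma, 0 of the 12 passed an adjusted p of 0.05 and 0 had an unadjusted p under 0.05. Over all measured probes, 0 passed the adjusted threshold (0%), and 922 had an unadjusted p under 0.05 (5.35%), of which those higher in LysM-KI mice made up 3.4% of all and those lower 1.94%. By genes, 3 of 5 members lay below 0, against 44.6% of measured genes. The median difference was -0.62 over the 3 measured mature members and -0.14 over Klf1 and Tfrc, beside 0.03 over all measured probes. The last value became 0.13 with median scaling in place of quantile normalization.

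Single mice set the size of these differences. Without control replicate 2 the Hbb-bs difference was -0.25, Car1 -0.19 and Klf1 0.07, so that the sign of Klf1 turned, as did that of 3 of the 6 Hbb-bs probes (0.38, 0.26 and 0.14). Without LysM-KI replicate 1 they were -1.31, -0.84 and -1.35. Without all 3 arrays with high globins, a setting chosen after the data had been seen, they were -0.31 ± 0.29, -0.44 ± 0.68 and -0.07 ± 0.34, and 3 of the 6 Hbb-bs probes turned above 0, up to 0.55. The brightest Tfrc probe gave 0.67 ± 0.36 in that setting, 0.23 without control replicate 3 and 0.75 without control replicate 2, and the other Tfrc probe 0.04 without LysM-KI replicate 1.

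**Figure D3:**
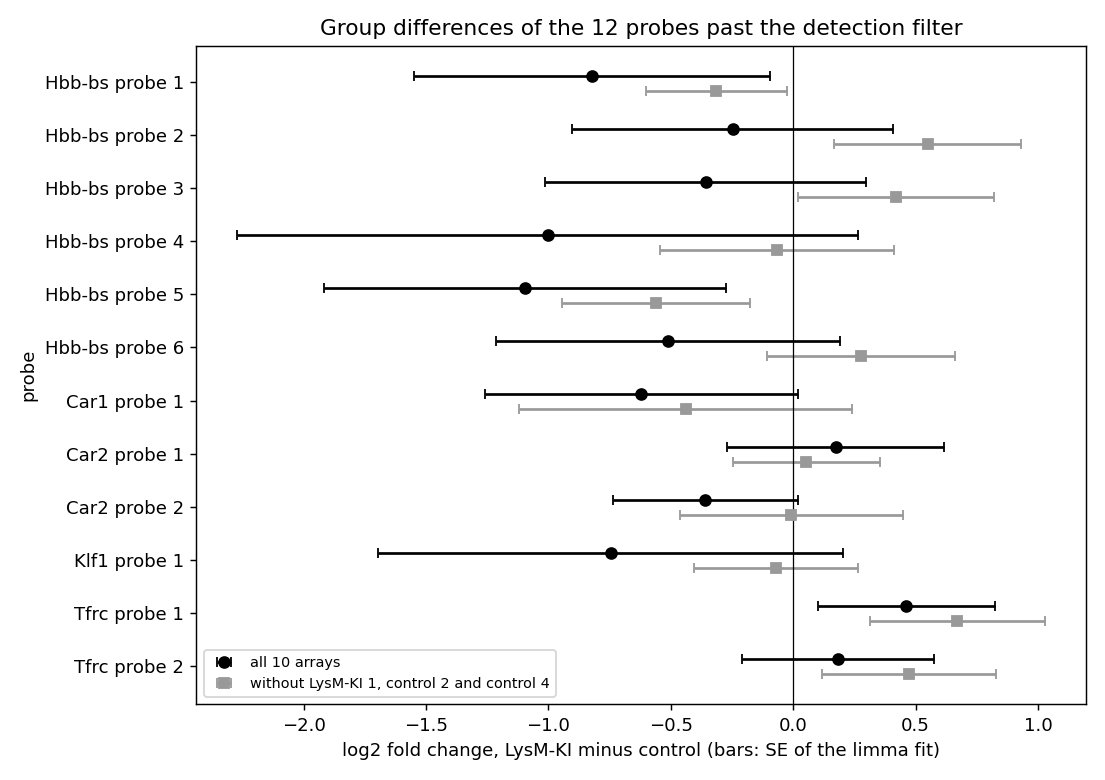
Log2 difference, LysM-KI minus control (horizontal axis), with the SE of limma's fit, for the 12 probes past the detection filter (rows). Black circles use all 10 arrays and grey squares leave out LysM-KI 1, control 2 and control 4. The Klf1 value is -0.74 with all arrays and -0.07 without the 3.

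Covariation between members followed the 3 high arrays. Over 10 arrays Hbb-bs and Klf1 correlated at r = 0.96 (Spearman's rho 0.56), and at 0.96 after each group's mean was removed. Without the 2 arrays farthest from the median of Hbb-bs, LysM-KI replicate 1 and control replicate 2, r was 0.82, and over the 7 arrays without high globins it was -0.05. The relation thus rested on the 3 high arrays, which are too few for a value of their own. Hbb-bs and Hba-a1 gave r = 0.95 and rho = 0.39, with -0.58 in the 7 other arrays, where Hba-a1 was not detected. Hba-a1 and Klf1 gave r = 0.94 and rho = 0.75.

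Hbb-bs and Car1 gave r = 0.67 and rho = 0.47 over 10 arrays, with 0.22 without LysM-KI replicate 1 and control replicate 2 and 0.45 in the 7 other arrays. Hbb-bs and Tfrc gave r = 0.40 and rho = -0.04, with 0.62 after each group's mean was removed and -0.52 in the 7. No test compared these correlations with one another. The brightest Car2 probe and Tfrc correlated at r = 0.76 and rho = 0.81, and at 0.53 in the 7 other arrays. The other Car2 probe disagreed with the brightest (r = -0.02 between them), so these values do not stand for Car2 as a gene. Car1 and Klf1 correlated at r = 0.69 and rho = 0.68, and at 0.50 in the 7. All these points share an array, its amplification and its normalization, and the values are given as a description.

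**Figure D4:**
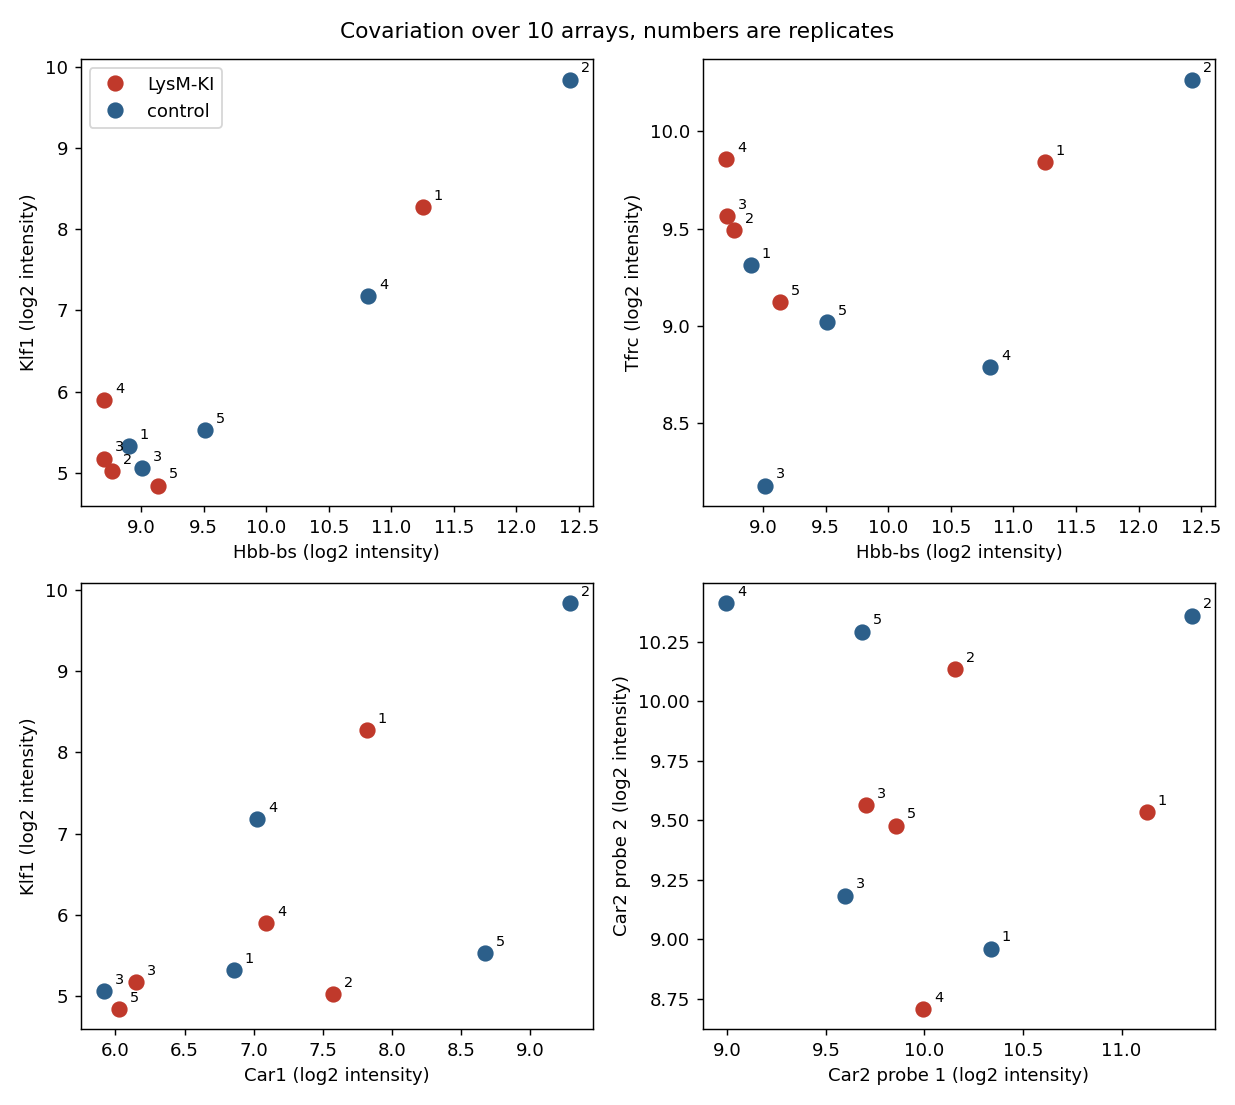
Log2 intensities of pairs of probes, 1 point per mouse with its replicate number, red for LysM-KI and blue for control. Klf1 rises with Hbb-bs (top left) through control 4, LysM-KI 1 and control 2 above a cluster of 7 mice, Tfrc does not order with Hbb-bs (top right), Klf1 is set against Car1 (bottom left), and the 2 Car2 probes (bottom right) correlate at -0.02.

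The genes most like Hbb-bs over the 10 arrays, of 8891 measured genes, were its near copies Hbb-bt (r = 0.952) and Hbb-b2 (0.943), followed by Morn3 (0.933), Slc25a16 (0.906) and Arhgap32 (0.903). Those most like Klf1 were Dusp13 (0.932), Arhgap32 (0.915), the erythroblast membrane gene Ermap (0.908), Myl6b (0.908) and Hbb-bt (0.903). In the 7 arrays without high globins, Hbb-bt, Hbb-b2, Morn3, Slc25a16 and Arhgap32 gave 0.63, 0.71, 0.37, 0.09 and -0.06 with Hbb-bs. With Klf1, which lay between 4.84 and 5.89 there, Dusp13, Arhgap32, Ermap, Myl6b and Hbb-bt gave 0.80, 0.40, 0.14, 0.48 and -0.53. The genes were ranked over arrays that include these 7. Morn3 and Myl6b were detected on 6 and 5 of the 10 arrays. Dusp13 read 8.13, 6.49, 6.91, 7.17 and 5.96 in LysM-KI mice 1 to 5, against 7.22, 9.76, 6.40, 8.41 and 7.61 in control mice 1 to 5, with the 3 globin-high arrays on top.

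Other genes of the red cell were then read from lists of the pathway. Of 9 other globins and their chaperone, 2 were measured. Hbb-bt, the second adult beta-globin gene, read 9.76, 8.39, 7.87, 7.22 and 8.04 in LysM-KI mice 1 to 5, against 8.02, 11.38, 8.24, 9.06 and 8.55 in control mice 1 to 5, a difference of -0.79 ± 0.66. The high arrays of Hbb-bs were also its 3 highest. The embryonic gene Hbb-bh1 was dim, between 4.95 and 5.65 in LysM-KI mice and 4.99 and 5.56 in control mice, and the 3 arrays did not stand out for it. The embryonic globins Hbb-y and Hba-x were detected on no array.

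In the red cell membrane and skeleton list, 12 of 21 genes were measured, 10 of them with a difference below 0 and a median of -0.39, and 0 passed the adjusted threshold. The water channel Aqp1 read 12.67, 11.79, 10.73, 11.27 and 9.92 in LysM-KI mice 1 to 5, against 10.16, 13.52, 11.26, 9.73 and 11.42 in control mice 1 to 5, a difference of 0.06 ± 0.71. Control replicate 2 and LysM-KI replicate 1 were its 2 highest arrays, and control replicate 4 its lowest. Add1 (adducin), Slc2a1 (the glucose transporter GLUT1) and Slc14a1 (a urea transporter) gave -0.26 ± 0.41, -0.37 ± 0.51 and -0.46 ± 0.38. Ermap, Slc4a1 and Xk are named after their values were seen. Ermap read 9.02, 6.18, 5.93, 5.71 and 4.71 in LysM-KI mice 1 to 5, against 7.25, 10.08, 5.63, 8.74 and 5.12 in control mice 1 to 5, with the 3 globin-high arrays on top. Slc4a1, the anion exchanger band 3, was detected on 3 arrays and read 9.32, 6.12, 4.54, 4.76 and 4.98 in LysM-KI mice 1 to 5, against 4.50, 10.51, 4.63, 4.47 and 4.69 in control mice 1 to 5. Control replicate 4 was not detected for Slc4a1 or for Alas2. Not all measured genes of the list moved with the globins. Slc2a1, Slc14a1 and Xk gave r = -0.23, -0.29 and -0.56 with Hbb-bs over 10 arrays, and the others had r above 0. Xk read 4.85 in LysM-KI replicate 1 and 4.75 in control replicate 2, its 2 lowest arrays. Probes of 1 gene disagreed in sign for Aqp1, where 1 of 3 measured probes had the sign given, and for Add1, where 2 of 5 had it.

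Haem synthesis genes had 10 of 13 measured, 5 below 0 and 5 above, with a median of 0.16. The 4 brightest were the mitochondrial carriers Tmem14c (0.37 ± 0.33) and Slc25a38 (0.73 ± 0.66) and the enzymes Cpox (-0.16 ± 0.23) and Urod (0.38 ± 0.40). For Cpox, 2 of 3 measured probes had the sign given. A pair of genes, named after their values were seen, had an unadjusted p under 0.05 with limma and no adjusted call. Over all measured probes 5.35% had such an unadjusted p, and those lower in LysM-KI mice made up 1.94% of all. Fech, which inserts iron into haem, read 5.20, 6.07, 4.75, 5.09 and 4.77 in LysM-KI mice 1 to 5, against 6.12, 7.94, 5.20, 7.52 and 6.99 in control mice 1 to 5, a difference of -1.58 ± 0.50 (limma adjusted p = 0.801). Of its 3 measured probes, 1 had the opposite sign. Slc25a37, the mitochondrial iron importer mitoferrin-1, read 6.57, 6.18, 6.81, 6.06 and 6.18 in LysM-KI mice 1 to 5, against 6.83, 7.90, 7.14, 7.47 and 7.71 in control mice 1 to 5. The highest LysM-KI value was 6.81 and the lowest control value 6.83, so the groups nearly touched. How many measured genes separate in this way was not counted. The difference was -1.05 ± 0.27 (limma adjusted p = 0.650). For both genes LysM-KI replicate 1 was outside the 3 highest arrays, unlike for the globins.

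Genes of terminal maturation had 8 of 15 measured, 7 below 0, with a median of -0.60 and 0 adjusted calls. The antioxidant enzyme Prdx2 gave -0.32 ± 0.22, the mitophagy receptor Bnip3l 0.61 ± 0.40, Mxi1 -0.80 ± 0.60 and the nuclear transport factor Xpo7 -1.08 ± 0.53, with 1 of its 2 measured probes of this sign. The mean level of the 8 genes was 6.94, 7.10, 7.27, 7.38 and 7.60 in LysM-KI mice 1 to 5, against 7.35, 8.12, 7.58, 8.06 and 7.71 in control mice 1 to 5. Control replicates 2 and 4 were highest, but LysM-KI replicate 1, with its high globins, was lowest.

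Iron uptake and storage genes had 8 of 11 measured, 2 below 0, with a median of 0.28. The ferritin chains Fth1 and Ftl1 gave 0.15 ± 0.25 and -0.03 ± 0.25, and Slc25a28 and Trf (transferrin) 0.46 ± 0.65 and 0.40 ± 0.39. The sign of Ftl1 turned with median scaling, and Slc25a28 gave -0.12 without control replicate 4. Of 19 erythroid and stem cell transcription factors, 16 were measured, 8 on each side of 0, with a median of -0.05. Myb, Lmo2, Bcl11a and Zbtb7a, bright on all arrays, differed by 0.04 ± 0.23, 0.10 ± 0.20, -0.16 ± 0.22 and -0.14 ± 0.22. Of the measured probes, 2 of 3 had the sign given for Myb and 1 of 2 for Bcl11a. Fli1, a factor of the megakaryocyte branch that was named after its value was seen, gave -0.83 ± 0.34 (limma adjusted p = 0.881). Erythropoietin receptor signalling had 10 of 13 measured, with a median of -0.02, and Stat5b, Ptpn6, Stat5a and Socs2 gave 0.38 ± 0.29, 0.14 ± 0.32, -0.08 ± 0.32 and 0.18 ± 0.75. Of 9 other carbonic anhydrases only Car9 was measured, at 0.87 ± 0.66. No gene in these lists passed the adjusted threshold with limma. Leaving out 1 array turned the sign of Add1, Aqp1 (-0.31 without control replicate 4, 0.64 without control replicate 2), Hbb-bh1, Ftl1, Myb, Ptpn6, Stat5a and Socs2 as well, and Slc25a38 gave 0.16 without control replicate 4.

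The level of the brightest Hbb-bs probe was set against 17 measures that hold no member, the mean level of each list and the number of detected probes. Of these, 5 had an adjusted p under 0.05 in a two-sided permutation test, adjusted after Benjamini-Hochberg over the 17. Hbb-bs and the lists were chosen with the levels of these arrays known, so the p-values describe the pattern of the 3 high arrays and are no independent support for a relation. The other globins gave r = 0.89 (adjusted permutation p = 0.0042), a list that holds the near copy Hbb-bt. Its 2 measured genes were Hbb-bt, at r = 0.95 with Hbb-bs, and Hbb-bh1, at -0.05. Since Hbb-bt could not be told apart from Hbb-bs here, this value does not set Hbb-bs against a separate measure. Red cell membrane and skeleton gave r = 0.88 and the red cell and erythroblast markers 0.86 (adjusted permutation p = 0.0171 for both). Haem synthesis gave 0.83 (0.0231), and the megakaryocyte and platelet markers ran the other way at -0.75 (0.0407). The last had an adjusted p above 0.05 when any of 8 of the 10 single arrays was left out (all but control replicates 3 and 5) and with cyclic loess (0.129). The 2 measured red cell and erythroblast markers were Ermap, at r = 0.88 with Hbb-bs, and Rhag, at 0.56. Both also belong to the membrane list, so the values of the 2 lists overlap. These pooled values reflect 3 high arrays of the brightest Hbb-bs probe above 7 that lay close together. Without LysM-KI replicate 1 and control replicate 2 the 5 values were 0.53, 0.71, 0.54, 0.53 and -0.55. In the 7 other arrays they were 0.53, -0.33, -0.66, -0.25 and 0.30, so 4 of the 5 changed sign. With Spearman's rho 0 of 17 passed, and the smallest adjusted permutation p was 0.217.

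Terminal maturation gave r = 0.48 over 10 arrays (adjusted permutation p = 0.341). Without LysM-KI replicate 1 it was 0.89 (adjusted permutation p = 0.00136), and it was 0.84 in the 7 arrays without high globins. LysM-KI replicate 1, with its high globins, was lowest for this list, so the p without it is no independent support for a relation. The list of erythroid and stem cell transcription factors gave 0.34 over 10 arrays and 0.85 in the 7, and the neutrophil and monocyte progenitor markers -0.10 over 10 arrays and -0.86 in the 7. The number of detected probes gave -0.35 and the LSK gate genes -0.23, with adjusted permutation p of 0.431 and 0.604.

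**Figure D5:**
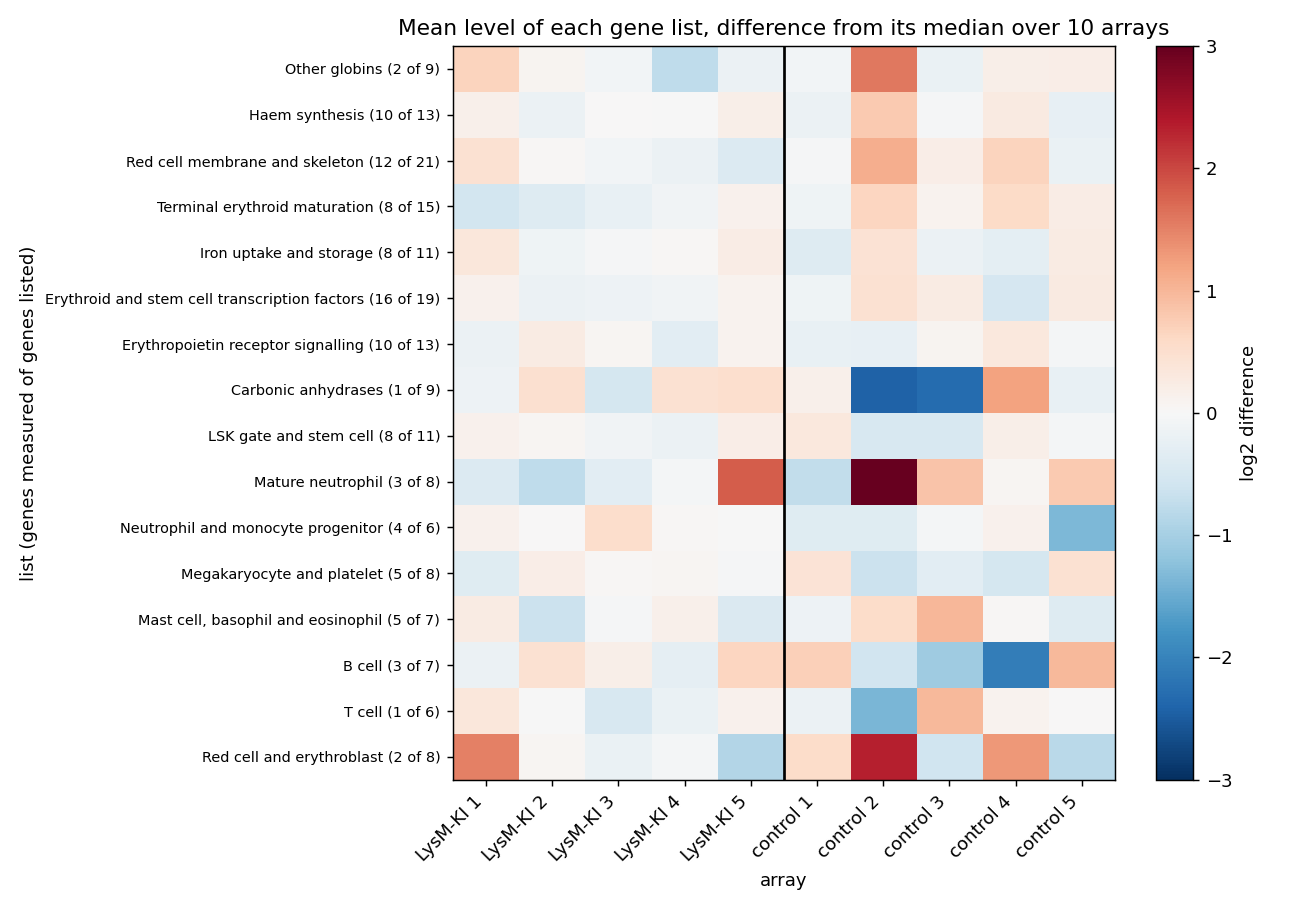
Mean log2 level of each gene list (rows, with genes measured of genes listed) as the difference from its median over 10 arrays, by colour, for LysM-KI mice left of the line and control mice right of it. The red cell and erythroblast list is high in LysM-KI 1, control 2 and control 4, and the other globin list in LysM-KI 1 and control 2. The mature neutrophil list is high in control 2 and LysM-KI 5.

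Markers of mature neutrophils moved with part of this pattern. Of 8 such markers, 3 were measured, and 3 of the other 5, Lcn2, Mmp8 and Retnlg, were detected on no array. S100a9, a calcium-binding protein of neutrophils, read 6.85, 5.93, 7.04, 7.61 and 10.50 in LysM-KI mice 1 to 5, against 5.57, 11.57, 8.99, 7.96 and 9.80 in control mice 1 to 5. Camp and Ltf, of neutrophil granules, were also highest in control replicate 2, at 8.78 and 6.88. The mean level of the 3 ranged over 5.25 to 7.81 in LysM-KI mice and 5.27 to 9.08 in control mice. LysM-KI replicate 1 and control replicate 4, the other arrays with high globins, read 5.58 and 6.05. Over 10 arrays the list and the Hbb-bs level gave r = 0.52 (adjusted permutation p = 0.266) and rho = 0.48 (0.349), with 0.64 in the 7 arrays without high globins. Whether the markers account for any of the globin level was not tested. Of 8 red cell and erythroblast markers that are not members, Ermap and Rhag were measured, and their mean level ranged over 4.87 to 7.26 in LysM-KI mice and 4.94 to 8.07 in control mice. Their relation to the Hbb-bs level is among the 17 above.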

How the data were processed

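RNA of LSK cells was measured on 10 Illumina mouse arrays, 1 per mouse (5 LysM-KI, 5 control). RNA was extracted with Trizol and amplified with the WT-Ovation Pico kit, per the labels' protocols. The deposited table holds linear intensities, not normalized, with a fraction beside each that rose with the intensity of its own array (rank correlation at least 0.990, against at most 0.851 with another array), so 1 minus the deposited fraction served as detection p. The authors' deposited log2 values differed from quantile-normalized log2 intensities, centred per probe, by at most 0.0131 and were an alternative. No label or header states how they were made or names a genome build.

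Intensities were corrected by limma 3.58.1 (R 4.3.3) with normexp, controls inferred from detection p, offset 16, quantile normalization and log2. An offset pulls differences of dim probes toward 0. Probes with detection p under 0.05 on at least 5 arrays were kept. Symbols came from the platform annotation, updated through Entrez (99.8% matched): 34885 probes had 1, 18 several and 10378 none. The brightest kept probe stood for a gene. Groups were compared with limma's moderated test over all 17245 probes, Benjamini-Hochberg adjusted, without a block. Mice with the same replicate number did not deviate together (correlations -0.03 to 0.06). Relations used 100000 permutations (scipy 1.17.1). The fit and the permutation test were tested on simulated data. Named pathway genes are the up to 4 brightest measured of each list, with those called out in the text as exceptions. The members and lists were chosen with earlier results of these data known. Alternatives varied background, normalization, filter, array weights, block and single arrays. The labels describe individual mice, and the number of arrays limits the precision. Columns belonging to other samples numbered 0.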

Additional observations from a re-analysis of the deposited data

Results flagged for a closer look

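In groups of 5 mice, a mouse was singled out when its gap to the nearest other, divided by the range of its group, passed the critical value of Dixon's test. Of 56 groups of member and list levels, 5 held such a mouse (8.93%). Chance gives about 1 in 20 for independent groups. These groups are not independent, since some probes share a gene and some lists share genes, and the members were chosen with their levels known. The share therefore cannot be compared with chance, and the mice are named as a description. LysM-KI replicate 1 stood apart from the other LysM-KI mice with 2 Hbb-bs probes, at a log2 intensity of 11.25 with ILMN_1244316 and 8.77 with ILMN_1223244. Control replicate 2 stood apart among control mice for the mean level of the other globins, at 8.42. LysM-KI replicate 5 stood apart for the mature neutrophil markers, at 7.81, and LysM-KI replicate 3 for the neutrophil and monocyte progenitor markers, at 10.06.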

How the results depend on the processing

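No probe passed the adjusted threshold under any of the 20 alternatives to the main comparison, among the members or elsewhere. The median difference of the 3 measured mature members stayed below 0, from -1.03 to -0.19 when single arrays were left out. In the main fit and at both ends of this range it was the value of Car1. The group medians of Car1 were 7.09 in LysM-KI and 7.03 in control mice, so its sign is not firm. The median difference of Klf1 and Tfrc ran from -0.48 to 0.41 on leaving out single arrays, and was 0.30 without the 3 globin-high arrays. With only probes detected on all 10 arrays Klf1 dropped out, and Tfrc alone gave 0.46. With the replicate number as a block, counts of calls stayed at 0 and the medians at -0.62 and -0.14, and no other call changed. The own number was the best match in 1 of 5 mice.

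The correlation of Hbb-bs with Klf1 was 0.92 to 0.98 when single arrays were left out, and -0.054 without the 3 globin-high arrays. The count of 5 adjusted relations of Hbb-bs became 0 to 5 on leaving out single arrays. It was 2 without LysM-KI replicate 1 (other globins and, newly, terminal maturation), 0 without control replicate 2 and 1 without control replicate 4. Without the 3 globin-high arrays 0 were left and the correlation was -0.25 for haem synthesis, -0.33 for red cell membrane and skeleton, -0.66 for red cell and erythroblast markers and 0.30 for megakaryocyte and platelet markers. The count was 4 with cyclic loess and with median scaling. Settings that leave out arrays have fewer samples and less power. Why the values and counts changed was not tested.

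The differences of Fech and Slc25a37 shrank to -0.71 and -0.57 without background correction. For Hba-a1, Alas2, Gata1 and Epor, signal over background limits what can be said.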
